A study of Homo sapiens with 9 samples.

Results

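The 10 genes described here are CD3D, CD3E, LCK, CCR4, KIR3DL2, TRBC2, TRBV3-1, ITM2A, INPP5D and CD247, 10 of the 36385 genes in the deposited table. T lymphocytes are known for most of them, and they were read here in MG-63, an established line from a human osteosarcoma that is widely taken as a stand-in for bone-forming cells. They were picked by name because earlier results of these same libraries had shown their counts high in 5 of the 9 libraries and low in the other 4. The 5 were all 3 libraries from the TiB2 surface and replicates 2 and 3 from bare alloy. The 4 were all 3 libraries from the HA coating and replicate 1 from bare alloy. The counts that chose the genes are therefore given as a description, with no test of that division.

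The libraries came from MG-63 cells grown for 7 days on boronized Ti6Al4V/HA (HA coating), on Ti6Al4V+TiB2 (TiB2) or on plain Ti6Al4V (bare alloy), a titanium alloy used in implants, with 3 libraries for each surface. All cells received osteogenic medium (100 nM dexamethasone, 50 µg/mL ascorbic acid, 10 mM beta-glycerophosphate), which pushes precursor cells towards bone formation. The labels put all 9 libraries in the same batch and say that the TiB2 libraries did not enter the submitters' final analysis. They do not name separate cultures behind the libraries of a surface. The p-values therefore measure only how far these libraries spread, and that spread may be technical.

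Depth was similar, at 58464306 to 72542556 counts per library, and a count of 0 allowed up to 3 counts, or 0.0414 to 0.0513 CPM (counts scaled to the library's total). Bare alloy replicate 1 stood apart from its own group before any T cell gene was considered. A set of 4 rows with no gene name took 6.46% of its counts, against 0.617% and 1.07% in the other bare alloy libraries and 0.0831% to 0.197% in the coated ones. The signal recognition particle RNA RN7SL1 was at 209 CPM there and at most 9.96 CPM elsewhere. In 11 of 12 bone and mesenchymal genes (SPP1 being the exception) the same library lay nearer to bare alloy replicates 2 and 3 than to the HA coating. Its part in the results below was not tested otherwise than by leaving it out.

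T cells recognise antigen with a receptor made of a variable alpha and beta chain, which is carried to the surface and coupled to the cell interior by the invariant CD3 and zeta chains. The kinase LCK phosphorylates those invariant chains once the receptor is engaged. Each developing T cell joins a variable, a diversity and a joining segment of the beta locus next to a constant segment, and a clone passes its own joined chain to its daughters. Bone cells do not assemble this receptor.

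Among the receptor segments, the counts fell mostly on a single variable and a single joining segment of the beta locus, so these are the sequences shown. Both are on the plus strand of chromosome 7 and come from GENCODE 29 (GRCh38). For the variable segment TRBV3-1 the last 90 bases are given (chr7:142308959-142309048), and capitals mark the conserved cysteine codon and the next 3 codons, where the antigen-contacting loop begins. For the joining segment TRBJ2-3 the whole segment is given (chr7:142796847-142796895), and capitals mark the phenylalanine-glycine motif that closes that loop.
TRBV3-1: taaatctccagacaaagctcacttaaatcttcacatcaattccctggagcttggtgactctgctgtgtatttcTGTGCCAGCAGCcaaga
TRBJ2-3: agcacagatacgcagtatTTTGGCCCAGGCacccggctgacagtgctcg
TRBV3-1 (391 bases) was most alike TRBV1 among 60 other variable segments, with 72.9% identity. TRBJ2-3 (49 bases) was most alike TRBJ2-5 among 13 others, with 77.1%. The rows used here held 9 TRBV and 9 TRBJ genes.

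TRBV3-1 (ENSG00000237702, chr7:142308542-142309048, plus strand) encodes the variable part of a beta chain. It had 206, 248 and 152 counts in TiB2 replicates 1 to 3, 197 and 113 counts in bare alloy replicates 2 and 3, 0, 2 and 0 counts in the HA coating libraries, and 0 counts in bare alloy replicate 1. The groups of 5 and 4 libraries did not overlap. The 113 counts of the lowest of the 5 and the 2 counts of the highest of the 4 gave a ratio of 57.4 in CPM. That ratio rests on few counts and on values that chose the gene, so it is a description only. Of all TRBV counts, TRBV3-1 held 206 of 216 (95.4%, 95% Clopper-Pearson interval 91.7% to 97.8%), 248 of 262 (94.7%, 91.2% to 97.0%) and 152 of 169 (89.9%, 84.4% to 94.0%) in TiB2 replicates 1 to 3. It held 197 of 203 (97.0%, 93.7% to 98.9%) and 113 of 135 (83.7%, 76.4% to 89.5%) in bare alloy replicates 2 and 3. These intervals, and all others here, cover counting error only. No other variable segment passed 10 counts in any library, the highest being TRBV12-4. In the HA coating libraries all TRBV genes together had 5, 9 and 2 counts, and in bare alloy replicate 1 they had 8.

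The joining segments showed the same concentration at far lower counts. TRBJ2-3, which contributes the end of the loop printed above, was not used to choose the genes. It held 13 of 14, 17 of 17 and 15 of 17 TRBJ counts in TiB2 replicates 1 to 3, or 92.9% (66.1% to 99.8%), 100% (80.5% to 100%) and 88.2% (63.6% to 98.5%). In bare alloy replicates 2 and 3 it held 16 of 17 (94.1%, 71.3% to 99.9%) and 9 of 13 (69.2%, 38.6% to 90.9%). No other joining segment passed 3 counts in any library. TRBJ2-3 had 0 counts in all 3 HA coating libraries and 1 count in bare alloy replicate 1.

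TRBC2 (ENSG00000211772, chr7:142801041-142802748, plus strand) is the constant segment that lies next to the TRBJ2 group. Its counts were 308, 373 and 331 in TiB2 libraries, 300 and 206 in bare alloy replicates 2 and 3, 21, 28 and 10 in HA coating libraries, and 17 in bare alloy replicate 1. The 4 low libraries were not empty for this gene, and the lowest of the 5 was 7.47 times the highest of them in CPM. Of the 10 listed genes its level varied least among the 5 libraries, with a coefficient of variation of 18.8%. TRBC1, the constant segment next to the TRBJ1 group, had at most 14 counts in any library, although the pair share 84.6% of their bases, so some reads could have been assigned to either.

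The alpha chain and the gamma-delta receptor did not appear with the beta chain. TRAC, the alpha constant segment, had 0 counts in all 5 libraries that held TRBV3-1 and 12 counts in HA coating replicate 3. The 2 TRAJ genes together had at most 2 counts in any library. The rows used here held no TRAV, TRDV, TRDC or TRGC gene. The 7 TRGV genes summed to between 3 and 12 counts per library, with no division between the 5 and the 4. PTCRA, the stand-in alpha chain of thymocytes, had 12 counts in TiB2 replicate 1 and 0 elsewhere.

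**Figure D1:**
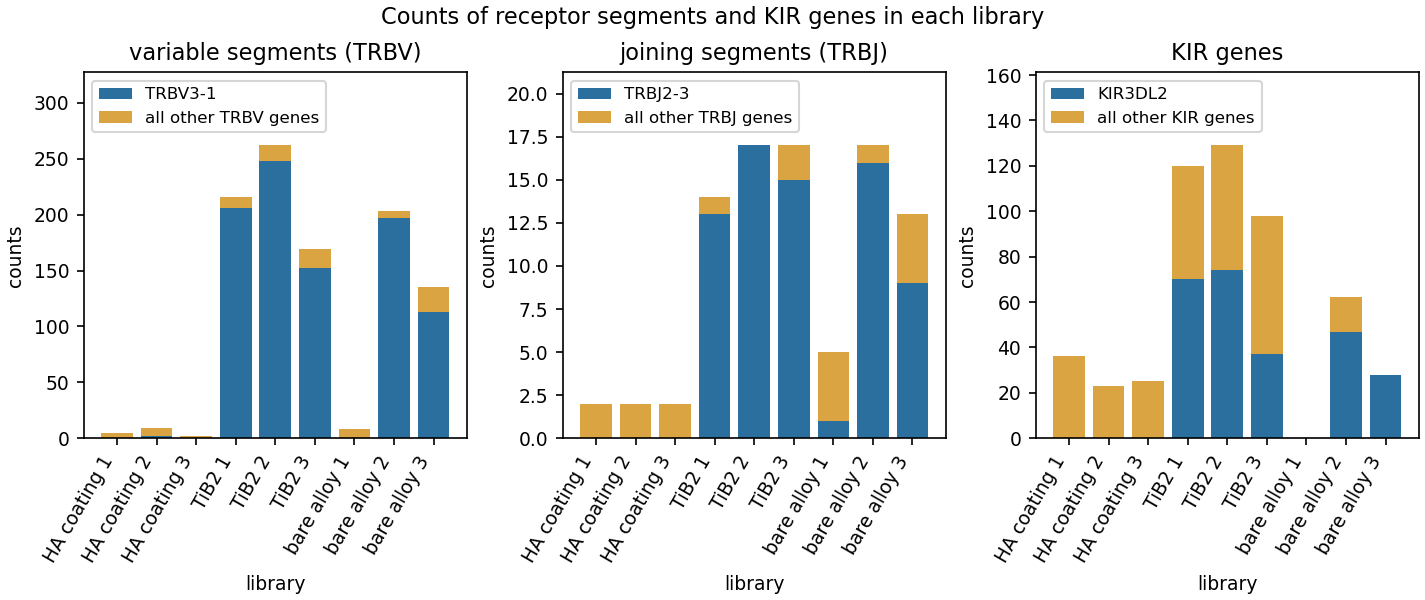
Counts (vertical axes) of the leading gene and of all other genes of the TRBV, TRBJ and KIR families in each of the 9 libraries (horizontal axes), stacked. TRBV3-1 makes 83.7% to 97.0% of the TRBV bars in the 5 libraries with tall bars, while other KIR genes, mostly KIR2DL4, also stand in the HA coating libraries.

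The CD3 chains carry the receptor's signal and are classical markers of T cells. CD3D (ENSG00000167286, chr11:118339075-118342705, minus strand) had 83, 137 and 102 counts in TiB2 libraries, 57 and 108 in bare alloy replicates 2 and 3, and 0 in each HA coating library and in bare alloy replicate 1. CD3E (ENSG00000198851, chr11:118304730-118316175, plus strand) had 105, 160 and 153 counts in TiB2 libraries, 103 and 91 in bare alloy replicates 2 and 3, and again 0 in each of the 4. Both genes were therefore read in every library of the 5 and in none of the 4. Against the floor of 3 counts per library, the HA coating was at least 36.4-fold lower than TiB2 for CD3D and at least 47.2-fold lower for CD3E. CD3G, the remaining CD3 chain and not among the 10, had 48, 60 and 0 counts in TiB2 libraries, 39 and 16 in bare alloy replicates 2 and 3, and 0 in the 4, so that TiB2 replicate 3 lacked it.

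CD247 (ENSG00000198821, chr1:167425027-167518640, minus strand) encodes the zeta chain, the main signalling arm of the receptor. It was the 1 gene of the 10 whose counts did not separate the libraries. For the other 9 all of the 5 libraries lay above all of the 4 in CPM, beside 1.88% of all genes, and the choice of the 10 fixes that count. It had 30, 4 and 0 counts in HA coating libraries, 52, 29 and 50 in TiB2 libraries, and 3, 59 and 36 in bare alloy replicates 1 to 3. The 30 counts in HA coating replicate 1 passed the 29 in TiB2 replicate 2. In GENCODE 29 the gene overlaps POU2F1, on the opposite strand, which had 1025 to 1840 counts per library, and strand use is not given in the sources used here. Reads of the pair may therefore be mixed.

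LCK (ENSG00000182866, chr1:32251244-32286165, plus strand) had 123, 99 and 175 counts in TiB2 libraries, 118 in each of bare alloy replicates 2 and 3, and 0 in the 4 others. It was at least 44.9-fold lower on the HA coating than on TiB2 against the same floor. Its relatives of the SRC family, which act in many cell types, were read in all 9 libraries without that division. FYN, for example, was at 20.4 to 25.4 CPM in the 5 libraries and 20.2 to 25.5 CPM in the 4, and YES1 at 146 to 167 CPM and 126 to 219 CPM.

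CD3D and LCK were both read in the 5 libraries and in none of the 4, so the 250 bases before their RefSeq start sites (GRCh38.p14) are shown, with 2 starts for LCK. Capitals mark AGGAAG, a core that ETS factors can bind, and TGTGGT, a core that RUNX factors can bind, on either strand. Neither match shows a bound site.
CD3D, chr11:118342706-118342955, minus strand: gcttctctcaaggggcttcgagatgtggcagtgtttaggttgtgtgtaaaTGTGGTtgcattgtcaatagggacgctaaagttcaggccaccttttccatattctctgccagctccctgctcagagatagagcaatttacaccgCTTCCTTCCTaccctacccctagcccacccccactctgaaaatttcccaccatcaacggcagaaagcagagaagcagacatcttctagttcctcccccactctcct
LCK upstream start, chr1:32251015-32251264, plus strand: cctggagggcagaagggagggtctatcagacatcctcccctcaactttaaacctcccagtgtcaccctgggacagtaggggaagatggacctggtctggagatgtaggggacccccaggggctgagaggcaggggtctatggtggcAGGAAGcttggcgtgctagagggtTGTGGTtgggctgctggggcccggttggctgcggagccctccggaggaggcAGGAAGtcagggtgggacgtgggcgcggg
LCK downstream start, chr1:32273871-32274120, plus strand: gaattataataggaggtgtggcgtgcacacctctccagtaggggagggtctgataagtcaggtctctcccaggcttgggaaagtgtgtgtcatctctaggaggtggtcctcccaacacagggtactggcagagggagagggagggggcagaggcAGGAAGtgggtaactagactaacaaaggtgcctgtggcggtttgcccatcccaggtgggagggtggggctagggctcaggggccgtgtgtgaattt
RefSeq promoters were matched for 7 of the 10 genes, with 8 promoters in all. AGGAAG stood in 7 of the 8, against 28.7% of all 35116 promoters of the same length, and TGTGGT in 3 of the 8, against 11.0%. CAGCTG, an E-box, and AGATAA, which GATA factors can bind, stood in 1 each, against 14.0% and 9.17%. Matches may share end letters, and the long run of capitals in CD3D holds overlapping copies of AGGAAG read on the opposite strand. ITM2A held none of the 4 motifs. The match of letters was not tested against the counts.

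CCR4 (ENSG00000183813, chr3:32951644-32956349, plus strand) is a chemokine receptor of helper, regulatory and skin-homing T cells. It had 93, 109 and 39 counts in TiB2 libraries, 34 and 26 in bare alloy replicates 2 and 3, and 0 in the 4. It was the most uneven of the 10 among the 5 libraries, with a 3.99-fold span and a coefficient of variation of 62.2% in CPM. KIR3DL2 (ENSG00000240403, chr19:54850443-54867207, plus strand) is an inhibitory receptor of natural killer cells and some T cells, and is also known from malignant T cells of Sezary syndrome. It had 70, 74 and 37 counts in TiB2 libraries, 47 and 28 in bare alloy replicates 2 and 3, and 0 in the 4. CCR10, the CC chemokine receptor with the highest mean CPM among the 8 of a list in the table, was read in all 9 libraries, at 1.96 to 3.79 CPM in the 5 and 1.51 to 3.42 CPM in the 4. CCR4 and KIR3DL2 were lower in TiB2 replicate 3 than in TiB2 replicates 1 and 2, and in the 4 libraries neither was read.

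KIR genes share long stretches of sequence, so reads of KIR3DL2 may be divided among relatives. KIR2DL4 was the other KIR gene with counts above 20. It had 36, 23 and 25 counts in HA coating libraries, 31, 55 and 51 in TiB2 libraries, and 0, 15 and 0 in bare alloy libraries. Its pattern did not follow that of KIR3DL2, since it was read on the HA coating and missing from bare alloy replicate 3. KIR3DL2 made 58.3%, 57.4% and 37.8% of all KIR counts in TiB2 libraries, and 75.8% and 100% in bare alloy replicates 2 and 3.

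ITM2A (ENSG00000078596, chrX:79360384-79367552, minus strand) encodes a membrane protein of activated T cells and thymocytes that is also known from cartilage and muscle precursors, so it is no marker of T cells alone. It had the highest counts of the 10, with 842, 976 and 748 in TiB2 libraries, 679 and 491 in bare alloy replicates 2 and 3, 0, 8 and 4 in HA coating libraries, and 0 in bare alloy replicate 1. The lowest of the 5 was 62.3 times the highest of the 4 in CPM. Its relatives ITM2B and ITM2C, which are broadly expressed, showed no such division, with ITM2B at 195 to 383 CPM in the 5 libraries and 153 to 308 CPM in the 4.

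INPP5D (ENSG00000168918, chr2:233059967-233207903, plus strand) encodes SHIP1, a lipid phosphatase of blood cells in general. It had 32, 56 and 48 counts in TiB2 libraries, 43 and 24 in bare alloy replicates 2 and 3, and 0 in the 4. INPPL1, which encodes its widely expressed relative SHIP2, was at 129 to 164 CPM in the 5 libraries and 74.7 to 160 CPM in the 4, so those ranges overlapped.

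**Figure D2:**
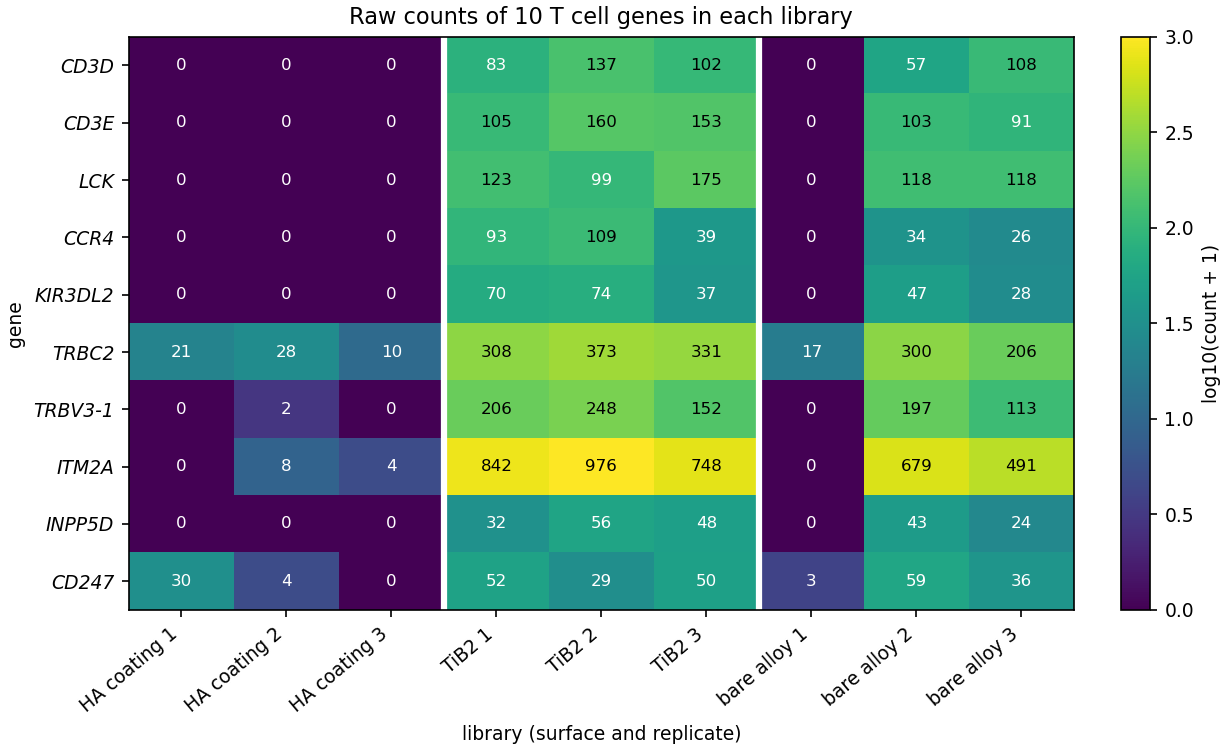
Deposited raw counts of the 10 genes (rows) in the 9 libraries (columns, by surface and replicate), coloured by log10(count + 1). All 10 genes have at least 20 counts in each TiB2 library and in bare alloy replicates 2 and 3, and CD247 and TRBC2 are the only ones that reach 20 in an HA coating library.

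Levels between genes can be set side by side only per length, as FPKM (fragments scaled to transcript length and library size). By the authors' FPKM in the 5 libraries, the beta chain segments and ITM2A were the highest, with TRBV3-1 at 4.61 to 9.58, TRBC2 at 4.35 to 7.45 and ITM2A at 3.82 to 7.21. Their ranges overlapped, so no order among those 3 is given. CD3E (0.543 to 0.905 FPKM), LCK (0.435 to 0.781), CD3D (0.250 to 0.599), KIR3DL2 (0.233 to 0.595) and CCR4 (0.134 to 0.542) formed a lower tier whose neighbours overlapped. INPP5D and CD247 were lowest, at 0.0438 to 0.0966 and 0.0411 to 0.0890 FPKM.

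Summed over the 10 genes, TiB2 libraries had 30.2, 35.8 and 29.1 CPM and bare alloy replicates 2 and 3 had 25.9 and 20.7 CPM. HA coating libraries had 0.843, 0.689 and 0.193 CPM, and bare alloy replicate 1 had 0.342 CPM. The 5 libraries thus spanned 1.73-fold among themselves, and the lowest of them was 24.5 times the highest of the 4. In bulk libraries fewer cells of a type and less RNA per cell cannot be told apart. Likewise, RNA of T cells in a library and transcription of these genes by MG-63 cells cannot be told apart from these counts.

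The make-up of that sum was similar in the 5 libraries. ITM2A made 39.6% to 44.0% of the counts and TRBC2 16.1% to 18.3%. TRBV3-1 made 8.28% to 12.0%, LCK 4.38% to 9.54%, CD3D 3.48% to 8.70% and CD3E 5.49% to 8.34%. Relative to CD3E, the ratio of TRBC2 moved least between the 5 libraries (1.36-fold, from 2.16 to 2.93 counts per CD3E count), and that of CCR4 moved most (3.47-fold, from 0.255 to 0.886).

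**Figure D3:**
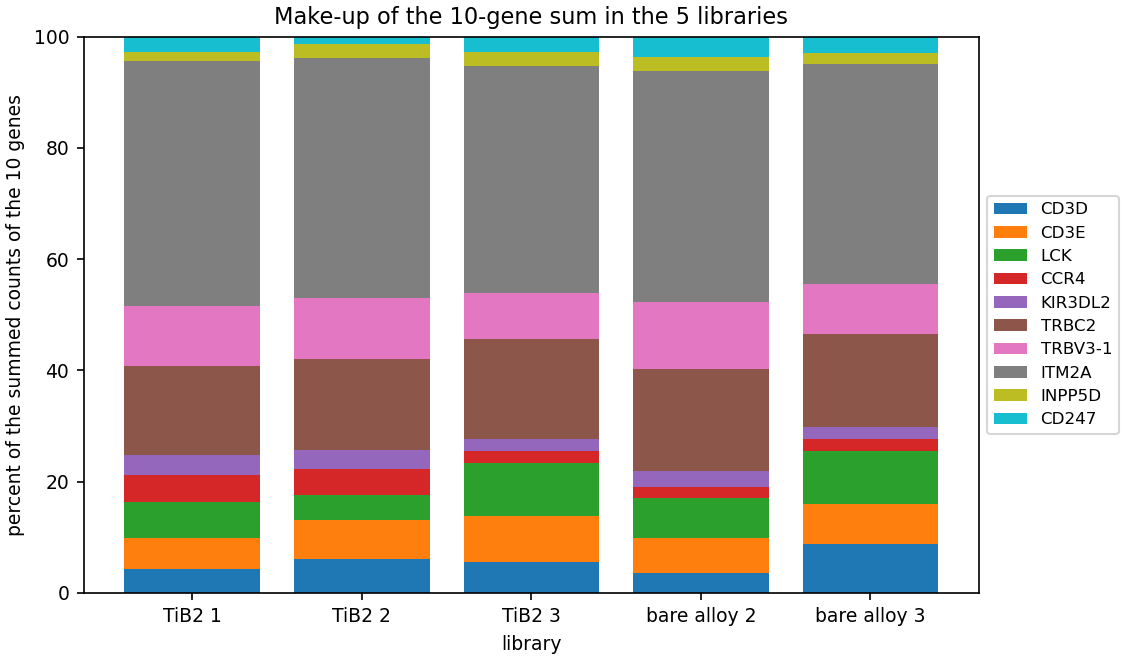
Share of the summed counts of the 10 genes (vertical axis, percent) that each gene takes in the 5 libraries in which the sum is high (horizontal axis). ITM2A is the widest band in all 5, at 39.6% to 44.0%.

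A strict form of the division, at least 20 counts in each of the 5 libraries and at most 3 in each of the 4, was met by 17 of all 36385 genes (0.0467%). Among them were 7 of the 10 genes (CD3D, CD3E, LCK, CCR4, KIR3DL2, TRBV3-1 and INPP5D). The rule that chose the genes looked at these counts, so nothing is read from that share. The opposite division was met by 5 genes (0.0137%), none of them among the 10. Just outside those limits lay ITM2A, with 8 counts in HA coating replicate 2, TRBC2, with 10 to 28 counts in the 4, and CD247, with 30 counts in HA coating replicate 1. Just inside lay INPP5D, whose lowest of the 5 had 24 counts, and CCR4 with 26.

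The other 10 genes inside the limits were MYH7, MYB, MYO1G, LEF1, LAD1, WDR72, RHOH, GTSF1, SH2D1A and MYH6. MYB and LEF1 are transcription factors known from blood cell and T cell development, RHOH is a GTPase of blood cells needed for T cell receptor signalling, and SH2D1A encodes SAP, an adaptor of T and natural killer cells. MYO1G is a myosin of blood cells, while MYH6 and MYH7 are heart muscle myosins with near-identical sequence, so their counts may be shared. LAD1, WDR72 and GTSF1 are not counted here as blood cell genes.

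Pattern likeness was measured as Pearson's r, over the 9 libraries, between each gene's log2(CPM + 0.1) and the mean of CD3D, CD3E and LCK on that scale. The highest 10 of 16528 genes outside the listed ones were WDR72, RHOH, MYB, TSPAN7, SH2D1A, MYH6, MYH7, IL2RG, MYO1G and RBM20, with r of 0.989 to 0.998. Such values follow from 2 clusters of libraries and are a description only. RHOH had 62 to 91 counts in the 5 libraries and 0 in the 4, and MYB 94 to 170 and 0. IL2RG, the common chain of several cytokine receptors of lymphocytes, had 122 to 224 counts in the 5 and at most 4 in the 4. Among the 10 listed genes, r was lowest for CD247 (0.816) and CCR4 (0.950).

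TiB2 against bare alloy was the comparison least tied to the choice of genes, since TiB2 and bare alloy replicates 2 and 3 lay on the same side of the division. Bare alloy replicate 1 lay on the other side. Estimates above 0 and a wide bare alloy spread in the fit of all 6 libraries therefore follow from that choice and are a description. All 10 genes could be tested with edgeR's quasi-likelihood test. None passed an adjusted p of 0.05, against 25.1% of the 20152 genes tested. All 10 estimates were above 0 on the log2 scale, between 0.37 and 1.95 with a median of 0.95 (all genes 0.0018), and adjusted p ran from 0.133 to 0.765. At an unadjusted p under 0.05 there was 1 gene, CCR4, with 1.27 ± 0.579 CPM on TiB2 and 0.324 ± 0.285 CPM on bare alloy (SD, n = 3 each). DESeq2 called that gene alone (beside 29.2% of all genes) and limma none.

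Without bare alloy replicate 1 the estimates moved towards 0 and their errors shrank. None of the 10 passed, against 20.1% of all genes, and 2 were under an unadjusted p of 0.05. The median log2 fold change was 0.38, and 9 of 10 were above 0. The log2 fold change of CCR4 was 1.37 ± 0.48 (SE, adjusted p = 0.0782) and that of ITM2A 0.51 ± 0.17 (adjusted p = 0.0740), both by edgeR. LCK was at 0.12 ± 0.29 and CD247 at -0.16 ± 0.43, the 1 estimate whose sign turned. With 2 bare alloy libraries left, a difference of the size of the standard errors was not detectable.

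**Figure D4:**
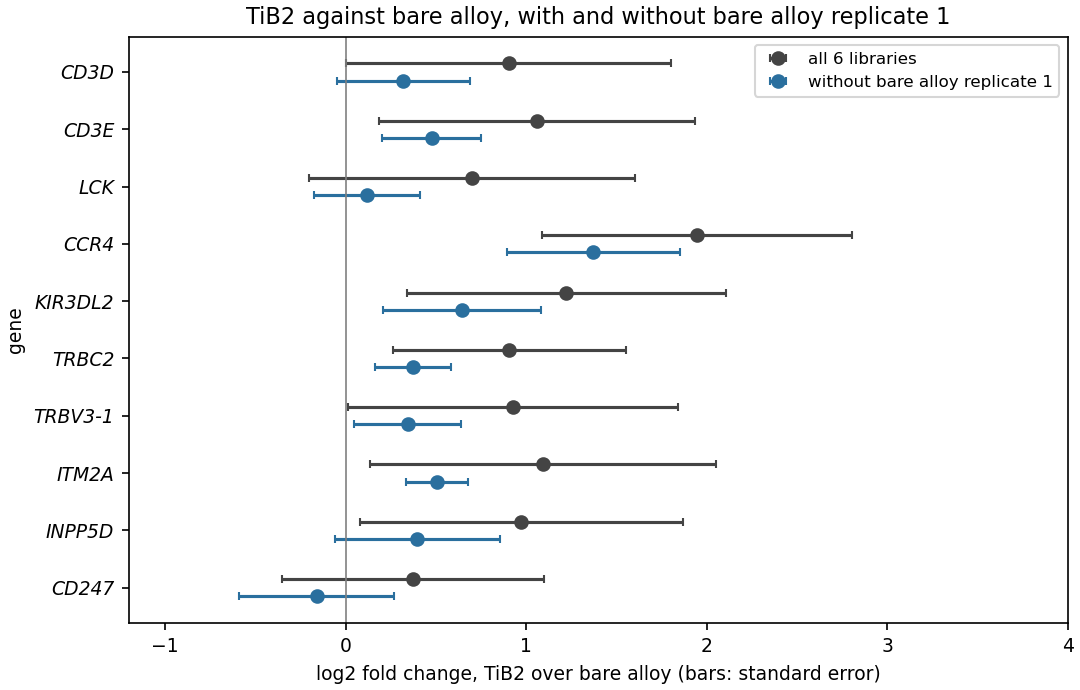
Log2 fold change of TiB2 over bare alloy (horizontal axis, with standard errors) for each of the 10 genes (vertical axis), from all 6 libraries and without bare alloy replicate 1. No gene passed an adjusted p of 0.05 in either fit, and CCR4 lies farthest to the right in both.

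HA coating against TiB2 followed the division itself, so its calls are a description. Of the 10 genes, 9 were called lower on the HA coating, all but CD247, beside 0.453% of the 20086 genes tested that were called lower and 0.632% called in either direction. Mean levels were 0.0621 ± 0.0659 CPM on the HA coating and 13.5 ± 1.80 CPM on TiB2 for ITM2A, and 0.315 ± 0.163 CPM and 5.34 ± 0.531 CPM for TRBC2 (SD, n = 3 each). CCR4, KIR3DL2 and INPP5D were listed at 0 in all HA coating libraries, which gave at least 27.2-fold, 20.4-fold and 15.4-fold lower levels than on TiB2. In a fit of all 9 libraries with a shared spread, edgeR called none of the 10 (beside 0.184% of all genes called lower), with 9 under an unadjusted p of 0.05.

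HA coating against bare alloy set the low libraries against a group that held 1 low and 2 high libraries, and its calls are a description too. The filter on low counts left 2 of the 10 genes, TRBC2 and CD247, and of these TRBC2 was called lower, beside 9.89% of the 20117 genes tested that were called in either direction and 4.88% that were called lower. Levels of TRBC2 were 0.315 ± 0.163 CPM on the HA coating and 2.82 ± 2.29 CPM on bare alloy. Without bare alloy replicate 1, all 10 were tested and 9 were called lower, all but CD247, beside 2.28% of all genes tested. Without any 1 of the other 5 libraries, edgeR called none of those tested, beside 2.86% to 19.9% of all genes called in either direction. Of those tested, 1 to 10 were under an unadjusted p of 0.05. In the fit of all 9 libraries edgeR called 9 lower, beside 7.82% of all genes. The HA coating libraries are shared by this comparison and the preceding one.

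Other genes of the T cell receptor complex, of its signalling and costimulation, and of T cell subsets were taken from lists, leaving 45 genes in the table beside the 10. The 5 libraries all lay above the 4 for 10 of the 45 (CD6, LCP2, PRKCQ, GRAP2, CD5, TESPA1, IL2RG, CD8A, CD28 and SH2D1A), beside 1.88% of all genes, and none lay below, beside 0.816%. The remaining 35 overlapped. CD5, a receptor on T cells that dampens their signalling, had 31, 53 and 52 counts in TiB2 libraries, 65 and 17 in bare alloy replicates 2 and 3, 0, 15 and 0 in HA coating libraries, and 0 in bare alloy replicate 1. CD28, the main costimulatory receptor, had 8 to 27 counts in the 5 and at most 4 in the 4. CD6, an adhesion receptor of T cells, had 8 to 27 counts in the 5 and 0 in the 4.

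Several genes usually read in T cells did not follow. CD2, an adhesion receptor of nearly all T cells, had 9 counts in TiB2 replicate 3 and 0 in the other 8 libraries. PTPRC, which encodes the leukocyte phosphatase CD45, had 13 to 63 counts in the 5 and 7 to 26 in the 4. VAV1, a signalling exchange factor, was at 2.27 to 3.19 CPM in the 5 and 2.53 to 5.16 CPM in the 4.

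The tests of these 45 genes gave few calls. For TiB2 against bare alloy, 31 could be tested, of which 2 rose and 2 fell (beside 12.9% and 12.2% of all genes), with a median log2 fold change of 0.63. IL7R, the receptor of a T cell survival cytokine, rose (log2 fold change 1.15 ± 0.22 SE, adjusted p = 0.00441 by edgeR), with 205, 187 and 209 counts on TiB2 and 85, 99 and 69 on bare alloy. TOX, a nuclear factor of developing and exhausted T cells, fell (-0.82 ± 0.14, adjusted p = 0.0024), with 486, 480 and 418 counts on TiB2 and 758, 830 and 682 on bare alloy. Bare alloy replicate 1 lay with its own group in both genes, and both calls held in all 13 alternatives. CD4, the coreceptor of helper T cells, also rose (1.50 ± 0.48, adjusted p = 0.0457), but passed in 2 of 13 alternatives, with adjusted p between 0.0353 and 0.343. TCF7, a T cell transcription factor that was read in all 9 libraries at 19.3 to 40.8 CPM, fell (-0.40 ± 0.10, adjusted p = 0.0192), and passed in 7 of 13. Of these 2, CD4 was lost without any 1 of the 6 libraries, and TCF7 without TiB2 replicate 3 or bare alloy replicate 3. Leaving out TiB2 replicate 3 left 2 calls, beside 19.3% of all genes. Leaving out bare alloy replicate 1 gave, beside 20.1%, 2 that rose (IL7R and RUNX3) and 3 that fell (TOX, SIT1 and TCF7).

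For HA coating against bare alloy, 22 of the 45 could be tested, of which 1 rose and 1 fell (beside 5.02% and 4.88% of all genes), with a median log2 fold change of -0.69 (all genes 0.015). IL7R rose (1.57 ± 0.33 SE, adjusted p = 0.0201 by edgeR), with 158, 297 and 365 counts on the HA coating and 85, 99 and 69 on bare alloy. TOX fell (-0.89 ± 0.20, adjusted p = 0.0244), with 439, 373 and 515 counts on the HA coating and 758, 830 and 682 on bare alloy. IL7R passed in 9 of 13 alternatives and TOX in 7, and neither passed without HA coating replicate 2 or without any 1 bare alloy library. With HA coating replicate 2, bare alloy replicate 2 or bare alloy replicate 3 left out, edgeR called 0, with 11, 5 and 6 under an unadjusted p of 0.05, beside 5.22%, 2.86% and 2.86% of all genes called. Without bare alloy replicate 1, 29 could be tested and 3 fell (IL2RG, SH2D1A and CD3G), each with at most 4 counts in any of the 4 libraries.

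For HA coating against TiB2, 27 of the 45 could be tested and 3 fell (IL2RG, SH2D1A and TESPA1), beside 0.453% of all genes for falls and 0.179% for rises. The 3 that fell were all the calls made. The median log2 fold change was -0.92. IL2RG had 0, 0 and 4 counts on the HA coating and 219, 207 and 224 on TiB2 (adjusted p = 0.00164 by edgeR, 0.0731 in a fit of all 9 libraries). SH2D1A and TESPA1, an adaptor of thymocyte signalling, were at 0 on the HA coating and had 36, 64 and 73 and 41, 32 and 34 counts on TiB2. SH2D1A was lost without HA coating replicate 2 or TiB2 replicate 3, and TESPA1 without HA coating replicate 2 or any 1 TiB2 library. The count was 5 without HA coating replicate 1, beside 5.84% of all genes called, and 1 without HA coating replicate 2, beside 0.235%.

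Gene lists of T cells and other blood cells were summed in each library, some of them holding genes that were chosen for the division. The T cell receptor complex list (8 genes in the table, 4 of them among the 10) summed to 7.76 to 12.0 CPM in the 5 libraries and 0.303 to 0.843 CPM in the 4. Without those 4 genes the list summed to 0 to 1.17 CPM and 0 to 0.165 CPM, and the libraries overlapped. Leukocyte-wide genes without INPP5D, which is among the 10, summed to 39.2 to 42.8 CPM and 13.4 to 22.8 CPM, and 9 of these 17 lay wholly above, beside 1.88% of all genes. Among these LCP1, an actin-bundling protein of blood cells that tumour lines also express, was at 5.03 to 7.96 CPM in the 5 and 1.11 to 1.30 CPM in the 4. ARHGDIB, a protein abundant in blood cells, was at 4.16 to 6.21 CPM and 0.345 to 1.06 CPM. Signalling genes (25, with LCK among them) summed to 15.2 to 18.0 CPM and 6.93 to 14.5 CPM. Without LCK they summed to 13.3 to 16.4 CPM and 6.93 to 14.5 CPM, so that the sums overlapped.

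The sums of the other lists overlapped between the 5 and the 4 libraries. PLS3 took most of the Sezary sum, CD68 of the myeloid sum, and TCF7 and RUNX3 of the subset sum. Gene by gene, 2 of 10 B cell genes (CD79A and MZB1) lay wholly above, beside 1.88% of all genes. So did 1 of 11 natural killer and cytotoxic genes (PRF1), 1 of 14 myeloid genes (AIF1) and 2 of 17 subset genes (IL2RG and CD8A). In the lists just named 0 genes lay wholly below. T cell subset genes (17) summed to 69.5 to 82.7 CPM in the 5 and 49.9 to 77.1 CPM in the 4, and genes known from Sezary cells (11) to 299.9 to 424 CPM and 346 to 501 CPM. Natural killer and cytotoxic genes (11) summed to 65.2 to 126 CPM and 33.8 to 111 CPM, of which NCAM1, also made by mesenchymal cells, took most. B cell genes (10) summed to 2.30 to 5.20 CPM and 1.87 to 3.39 CPM, myeloid genes (14) to 71.5 to 97.7 CPM and 62.4 to 93.3 CPM, and erythroid and platelet genes (5) to 0.158 to 0.442 CPM and 0.317 to 0.545 CPM. Bone and mesenchymal genes (12), which mark the labelled cell line, summed to 11078 to 20875 CPM in the 5 and 8281 to 19208 CPM in the 4. Of these 12, 1 lay wholly below (SPP1), beside 0.816% of all genes, and 0 lay wholly above. SPP1 was at 14.8 to 16.8 CPM in the 5 and 42.6 to 51.3 CPM in the 4. The part of any other cell type in the T cell gene counts was not tested.

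**Figure D5:**
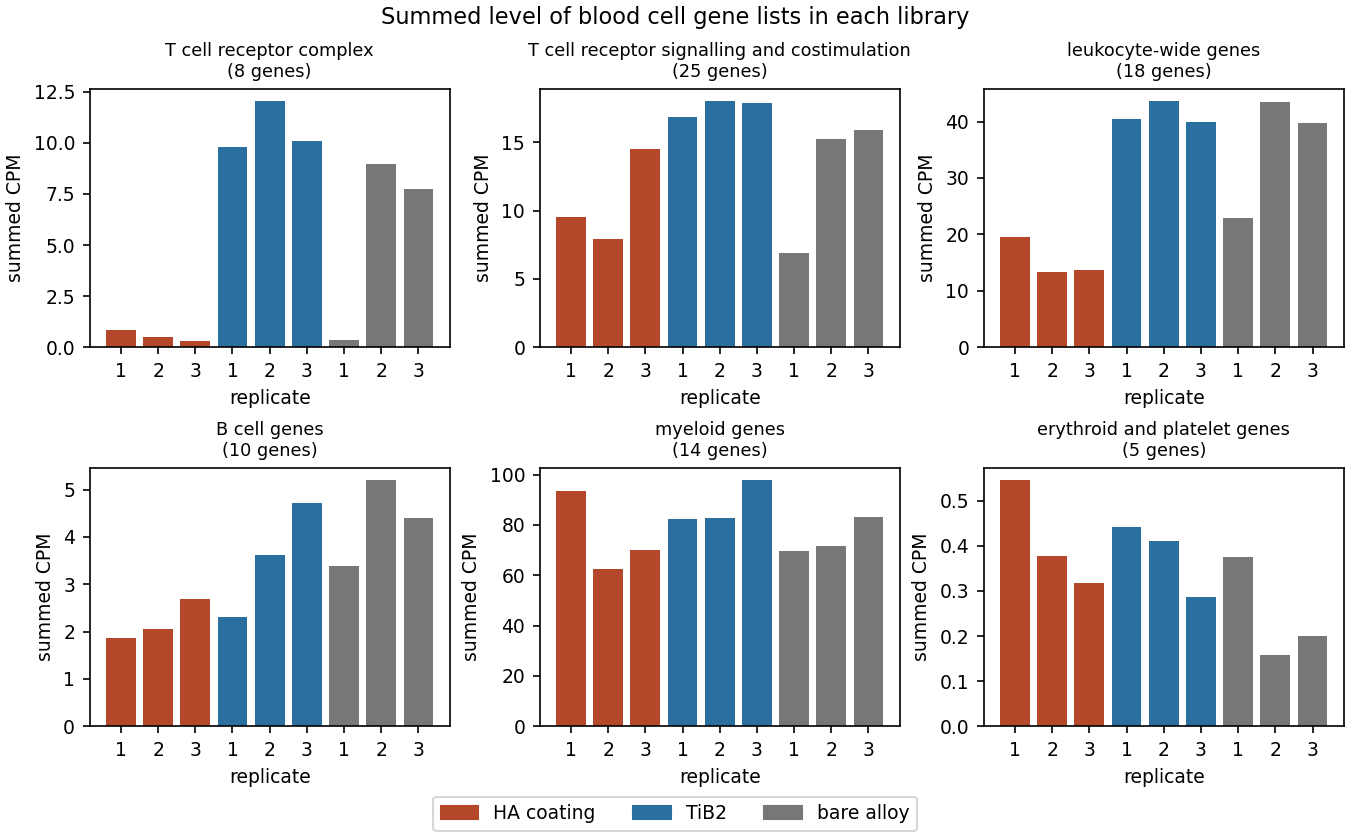
Summed CPM (vertical axes, each from 0) of 6 gene lists in the 9 libraries (horizontal axes, replicates 1 to 3 of HA coating, TiB2 and bare alloy). The T cell receptor complex list lies at 7.76 to 12.0 CPM in all TiB2 libraries and bare alloy replicates 2 and 3 and at 0.303 to 0.843 CPM in the others. The sums of the B cell, myeloid and erythroid lists overlap, as do those of the receptor and signalling lists without the listed genes they hold.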

How the data were processed

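RNA-seq of MG-63 cells was deposited as a single table of 36385 genes with, for each of 9 libraries, a raw count and an FPKM value made by the authors. Per the submitters' processing notes, the GRCh38 build was used with featureCounts 2.0.1, StringTie 2.1.4, HISAT2 2.2.1, cutadapt 2.10 and limma. The role of each tool, strand use and the handling of multi-mapping reads are not stated in the labels or files. Coordinates are those of the deposited table.

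The 10 genes and all gene lists were chosen with earlier results of these data known. CPM are deposited counts scaled to a library's deposited total. Each comparison used its own 6 libraries, edgeR 4.0.16 (filterByExpr, TMM, quasi-likelihood test, two-sided) and Benjamini-Hochberg adjustment over all genes tested, with a threshold of 0.05, in R 4.3.3. Standard errors of log2 fold changes were derived from the F statistics. The edgeR step was tested on simulated counts. Alternatives were DESeq2 1.42.0, its size factors, no filter, limma 3.58.1 on log2(FPKM + 1) and log2(FPKM + 0.1), a replicate block, all 9 libraries in 1 fit, and leaving out each library. A fit that leaves 2 libraries in a group pools its spread over all libraries that remain. Exact binomial intervals are at 95%.

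Named genes were the 10, the T cell receptor complex list, up to 4 members of each other list by mean CPM, receptor and KIR segments with at least 20 counts, and the 10 most alike in pattern. TRBJ2-3, RHOH, CD5, CD28, CD6, CD2, PTPRC and the genes past a test or limit were named after their values were seen, as were those under other observations. Sequences came from GENCODE 29 and RefSeq.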

Additional observations from a re-analysis of the deposited data

How the results depend on the processing

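For HA coating against bare alloy, the 1 call among the 10 genes became 0 with no filter, 0 with limma on log2(FPKM + 1), 0 with limma on log2(FPKM + 0.1), 0 with the replicate block, 9 with all 9 libraries in 1 fit, and 0 to 9 when single libraries were left out. The 2 calls among the other T cell genes (22 tested) became 1 of 40 with no filter and 5 of 16 with DESeq2. They became 1 of 22 with the block, 7 of 31 with all 9 libraries and 0 to 3 without single libraries. With no library left out, the share of all genes called moved in the same direction in the named fits, as given below. It did not always do so when single libraries were left out. Without bare alloy replicate 1, edgeR called 9 of the 10 genes while the share over all genes fell from 9.89% to 4.05%. Without HA coating replicate 1, it called 0 of the 10 while the share rose to 19.9%. For TiB2 against bare alloy, the 0 calls among the 10 genes became 1 with DESeq2 and stayed at 0 without single libraries (0 to 0). The 4 calls among the other T cell genes became 2 with either limma fit, 2 with the block, 2 with all 9 libraries and 2 to 5 without single libraries. For HA coating against TiB2, the 9 calls among the 10 genes became 0 with all 9 libraries and 6 to 10 without single libraries. The 3 calls among the other T cell genes became 1 with no filter, 5 with DESeq2, 1 with limma on log2(FPKM + 1), 0 with all 9 libraries and 1 to 5 without single libraries. Over all genes, HA coating against bare alloy gave 1990 calls (9.89% of genes tested), against 1093 with no filter (3.15%) and 3562 with DESeq2 (20.1%). It gave 3518 with all 9 libraries (16.6%) and 598 to 4185 without single libraries (2.86% to 19.9%). The share was 6.75% with the block, and 8.87% and 8.98% with limma on log2(FPKM + 1) and log2(FPKM + 0.1). HA coating against TiB2 gave 127 (0.632%), against 35 (0.102%), 501 (2.5%), 67 (0.316%) and 49 to 1224 (0.234% to 5.84%) in the same order. It gave 195 with the block (0.971%), and the share was 0.587% with limma on log2(FPKM + 1). TiB2 against bare alloy gave 5059 (25.1%), against 2132 with all 9 libraries (10.1%). Its share was 29.2% with DESeq2, 18% with the block and 17.6% to 20.1% without single libraries. The limma fits called 21.3% on log2(FPKM + 1) and 21% on log2(FPKM + 0.1). The log2 fold change of CD247 for TiB2 against bare alloy was between -0.16 (without bare alloy replicate 1) and 1.06 without single libraries, and this was the only sign that turned among the listed genes in the alternatives run. The number of genes with the strict division was 17, and became 27 at 10 counts or more and 9 at 40 or more. The median 10-gene sum in the 5 libraries was 29.1 CPM, and 28.5 CPM after TMM scaling. Same-numbered libraries did not deviate together (correlations of -0.0671 to 0.0429 over 21213 genes). The main tests therefore did not pair them, though with 3 libraries per surface a pairing could be missed, and the labels give none. In HA coating against bare alloy, TiB2 against bare alloy and HA coating against TiB2, 2, 0 and 0 of 6 libraries correlated best with their own number. The cause of these changes was not tested.

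At these counts 3 reads were worth 0.0414 to 0.0513 CPM, so a count of 0 does not exclude a level up to that. Counts of a few reads, as for TRBJ2-3, have wide intervals, and each surface had only 3 libraries.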

Other observations

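A smaller group of genes showed the opposite division, with at least 20 counts in each of the 4 libraries and at most 3 in each of the 5. It held 5 genes (0.0137% of the table), PKP1, GPR143, ENPEP, ZNF667-AS1 and ZNF667, which were singled out after their values were seen. ENPEP, an aminopeptidase that cleaves angiotensin, had 106, 115 and 122 counts in HA coating libraries, 0 in all TiB2 libraries, and 102, 0 and 0 in bare alloy replicates 1 to 3. PKP1, a desmosomal protein, had 55, 72 and 52 counts in HA coating libraries, 0 in all TiB2 libraries, and 31, 0 and 0 in bare alloy replicates 1 to 3. Reads of ZNF667 and its antisense RNA ZNF667-AS1 cannot be told apart without strand.

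The 14 myeloid genes of the list showed no shared direction. AIF1, a protein of macrophages, lay wholly above in the 5 libraries, with 20, 15 and 32 counts in TiB2 libraries, 16 and 8 in bare alloy replicates 2 and 3, and 0 in the 4 others. ITGAM, an integrin of myeloid cells, had 6, 0 and 0 counts in HA coating libraries, 26, 26 and 18 in TiB2 libraries, and 0, 6 and 3 in bare alloy libraries. The following 4, singled out after their values were seen, were highest in an HA coating library. S100A9, a calcium-binding protein abundant in neutrophils that epithelial and tumour cells also make, had 45, 30 and 220 counts in HA coating libraries, 27, 28 and 8 in TiB2 libraries, and 4, 0 and 0 in bare alloy libraries. Its partner S100A8 had 0, 14 and 67 counts in HA coating libraries, 5, 5 and 0 in TiB2 libraries and 0 in bare alloy libraries. LYZ, which encodes lysozyme, had 47, 20 and 0 counts in HA coating libraries, and CD163, a scavenger receptor of macrophages, had 20, 10 and 0, and both were at 0 in the other 6 libraries. These genes did not move as one, since HA coating replicate 3 was highest for S100A8 and S100A9 and at 0 for LYZ and CD163.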
